A study of Danio rerio with 24 samples.

Results

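The proteasome genes of the zebrafish were followed in whole embryos and larvae raised in DMSO (the solvent control), tetrahydrocannabinol (THC) or cannabidiol (CBD). Members were all gene identifiers in the count files whose symbol, in either case, begins with PSMA, PSMB, PSMC, PSMD or PSME followed by a digit. This gave 55 of 35117 identifiers. Of these, 53 name subunits, assembly chaperones or activators of the proteasome, and PSMC3IP and PSME3IP1 are named for a proteasome partner. The 53 comprise 10 alpha ring genes, 7 standard beta ring genes, 7 immune beta genes, 7 ATPases and 5 other genes of the 19S base, 9 genes of the 19S lid, 3 chaperones of 19S assembly and 5 activators. The 46 that are not immune beta genes are called the non-immune set.

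All animals were of the transgenic line Tg(fli1:egfp), in which a green fluorescent protein is driven by sequence of fli1, an endothelial gene. Each of the 3 treatments ran throughout development, and animals were sampled at 10 or at 96 hours post-fertilisation (hpf), with 4 libraries in each of the 6 groups. The design text calls the 4 libraries biological replicates without saying whether they came from separate clutches, so the p-values cover only the spread among these libraries, which may be technical. The labels state no doses. Whole animals were used, so fewer cells of a type and less RNA per cell cannot be told apart in any value that follows.

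The proteasome is the protease that breaks down most short-lived and damaged proteins tagged with ubiquitin. Its 20S core is a barrel of outer alpha rings and inner beta rings, and the proteolytic sites sit on the beta subunits PSMB5, PSMB6 and PSMB7. The 19S cap binds the ubiquitin chain, removes it, and unfolds the substrate with a ring of ATPases. In immune cells and under interferon, PSMB8, PSMB9 and PSMB10 can replace PSMB5, PSMB6 and PSMB7, which changes the peptides made for display on class I MHC molecules. The activators PSME1 and PSME2, PSME3, and PSME4 bind the end of the core in place of the 19S cap.

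Library totals lay between 14879976 and 29641377 counts in 23 libraries. DMSO replicate 4 of 10 hpf held only 125926 counts. CBD replicate 3 of 10 hpf also stood apart, with 20212 genes detected against 23229 to 24707 in the other deep libraries of its stage and a TMM (trimmed mean of M values) scaling factor of 0.563 against 0.875 to 1.07. The counts, medians and fold changes of the 10 hpf comparisons that rest on CBD replicate 3 are given with and without it. As a check of the stage labels, all 9 gastrula markers were called lower and 9 of 10 larval markers higher at 96 hpf in DMSO, the exception being the hatching enzyme gene he1.1, which was called lower. Expression is given as CPM, counts relative to library size, scaled by TMM over the 24 libraries, and CPM is not corrected for gene length, so levels are compared between groups and not between genes.

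Members were expressed broadly. The non-immune set together took 0.54% to 0.70% of the counts of DMSO libraries at 10 hpf and 0.35% to 0.48% at 96 hpf. Its summed level in DMSO was 5672 to 6548 CPM at 10 hpf (mean 6088 ± 372, SD, n = 4) and 2994 to 4945 CPM at 96 hpf (4086 ± 845). With THC it averaged 5826 ± 499 CPM at 10 hpf and 4022 ± 594 CPM at 96 hpf. With CBD the 10 hpf mean was 9393 ± 5272 CPM, where replicate 3 stood at 17233 CPM and the other replicates between 5988 and 7670 (9690 and 5842 to 6924 CPM by library total), and the 96 hpf mean was 3651 ± 400 CPM. The larval libraries of the 3 treatments overlapped throughout. At the other end, psmb11b, a thymus-type beta gene, had 0 counts in every library. PSMB11, of the same type, had 0 counts in all 10 hpf libraries and 4 counts over the THC and 1 over the CBD larvae. No identifier carries the symbol PSMA7, and the alpha ring gene PSMA8, whose mammalian counterpart is a testis form of PSMA7, was at 211 ± 21.8 CPM in DMSO embryos and 146 ± 30.2 CPM in DMSO larvae.

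**Figure D1:**
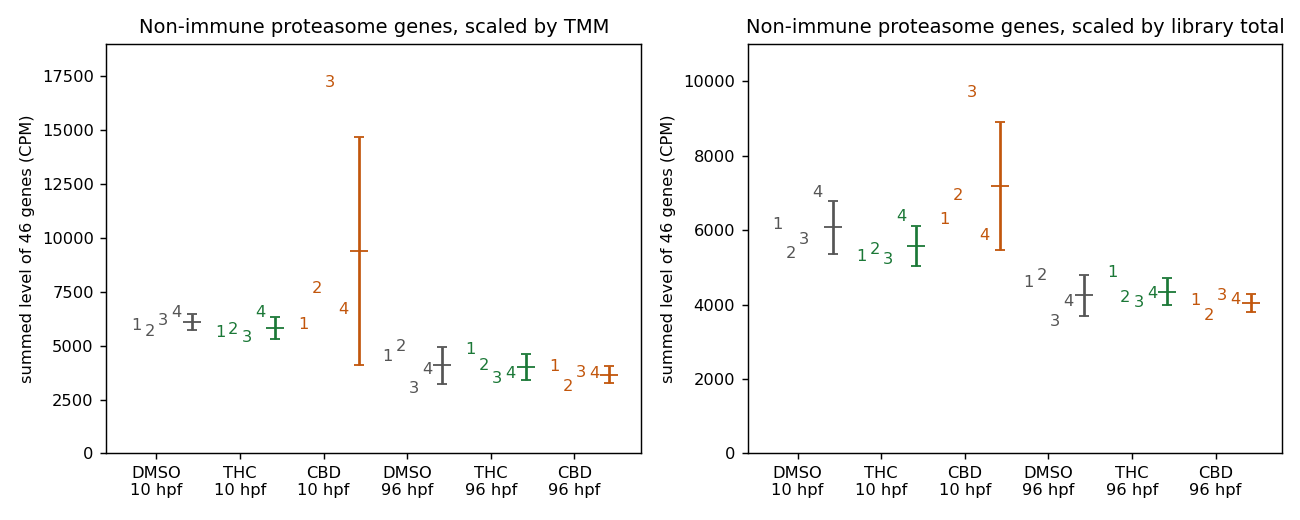
Summed level in CPM of the 46 non-immune proteasome genes in each library, scaled by TMM (left) and by library total (right), at 10 and 96 hpf in DMSO, THC and CBD. Digits are replicate numbers and bars show the group mean ± SD (n = 4). Under TMM the 10 hpf libraries lie at 5375 to 7670 CPM except CBD replicate 3 at 17233 CPM, and the 96 hpf libraries lie at 2994 to 4945 CPM.

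The first comparison asked how proteasome transcripts differed between the end of gastrulation and the larva in solvent controls. Read against all genes, most proteasome genes moved little and together. Leaving aside PSME2 and psma6l, the PSME4 gene ENSDARG00000087911, PSME3 and PSMC3IP moved far more than the rest. Of the 51 members that passed the filter on low counts, 27 passed the edgeR quasi-likelihood test with Benjamini-Hochberg adjustment (threshold 0.05), 4 higher and 23 lower at 96 hpf. Of the 51, PSME2, psma6l and PSMB9 did not pass that filter over the embryo libraries alone and entered through the larvae, so the calls of PSME2 and psma6l among the 4 higher are a description. The same test called 77.1% of all 22741 genes tested, 42.7% higher and 34.4% lower. The members' counts changed with the libraries and the scaling used, as given next, and are not read as a result about the members. Leaving out DMSO replicate 2, 3 or 4 of 10 hpf lowered the count of 27 to 13, 11 or 24 (71.2%, 70.7% and 76.8% of all genes), and without both libraries that stood apart it was 6 higher and 32 lower (45.4% and 35.7% of all genes). Their median log2 fold change was −0.52 against 0.32 for all genes. Among the non-immune set the quartiles were −0.85 and −0.21, while those of all genes were −1.32 and 2.79. Of its 46 genes, 40 lay within 1 log2 unit of their own median, against 27.1% of all genes about theirs.

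The direction of this shift depended on the scaling. With DESeq2 size factors 11 members were called higher and 2 lower (55% and 21.9% of all genes), and the members' median was 0.28 while that of all genes was 1.14. With library totals alone 6 were called higher and 27 lower (43.3% and 32.2% of all genes). Another scaling shifts all genes by nearly the same amount, so that the members' median stayed at −0.84, −0.86 and −0.88 relative to that of all genes by construction, and the sign differed between scalings for 24 of 51 members. The shallow DMSO replicate 4 of 10 hpf enters the size factors, here and below unless it is said to be left out. Of the paralogs, PSMA8 and PSMB5 whose sign turned with them, only PSMA6 ENSDARG00000013966 and PSMA2 still turned without that library. In all, 6 members were called in 1 direction under all 3 scalings: PSME2, psma6l, PSMD5 and the PSME4 gene ENSDARG00000087911 higher, and PSME3 and PSMC3IP lower. PSME2 and psma6l are again those that entered through the larvae. The background of such calls was 42.3% higher and 21.9% lower. With THC, 28 members were called between stages, 6 higher and 22 lower (79.9% of all genes, 44.5% and 35.4%), and with DESeq2 size factors 14 higher and 2 lower (56.9% and 22.8%). With CBD it was 45, 3 higher and 42 lower (78% of all genes, 42.4% and 35.6%), and with DESeq2 size factors 5 higher and 23 lower (54.7% and 22.7%). There the members' median under TMM moved from −1.29 to −0.78 when CBD replicate 3 was left out.

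**Figure D2:**
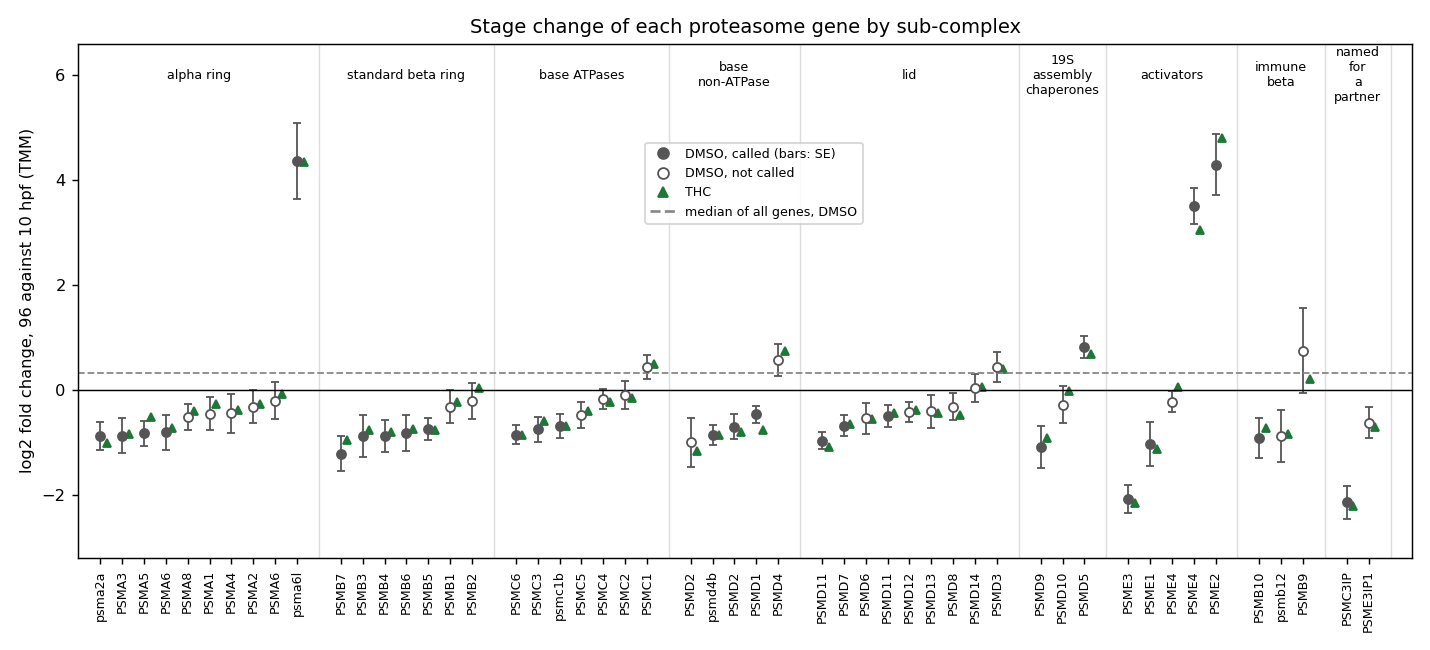
Log2 fold change of 96 against 10 hpf under TMM for each tested proteasome gene, grouped by role, in DMSO (circles, filled where the adjusted p is under 0.05, bars ± SE) and in THC (triangles). The dashed line is the median of all genes in DMSO, 0.32. Most genes sit below it in a band around −0.52, while a PSME4 gene at 3.51 and, as a description, PSME2 at 4.30 and psma6l at 4.37 lie far above it and PSME3 at −2.08 and PSMC3IP at −2.15 below.

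The activators moved in different directions. PSME3, which forms a nuclear activator of the core, stood at 146.4, 183.2, 168.7 and 192.8 CPM in the 4 DMSO libraries of 10 hpf and at 51.9, 50.4, 29.5 and 29.9 CPM at 96 hpf. Every larval library was below every embryo library. PSME3 (ENSDARG00000012234) fell by 2.08 on the log2 scale (SE 0.26, edgeR adjusted p = 2.28e-07), by 2.16 with THC and by 2.43 with CBD. The CBD value includes replicate 3 of 10 hpf, at 387 CPM against 143 to 192 CPM in the other CBD embryo libraries. Within libraries, PSME3 counts per PSMB5 count went from 0.741 to 0.291 in DMSO, from 0.843 to 0.321 in THC and from 0.696 to 0.334 in CBD. These ratios need no scaling, and each difference had the smallest p that 4 against 4 libraries allow (exact two-sided permutation test, p = 0.0286), also with any single library left out. The adjusted value was 0.0468 over 18 ratios. Those ratios include the ones of PSME2, a gene given no test here, so the adjusted value is not read as a result. The p of each ratio is thus unadjusted for the number of ratios and is given as a description.

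PSME2, a partner of PSME1 in the interferon-inducible activator, held 2, 6, 2 and 0 counts in the DMSO embryo libraries and 89, 56, 109 and 100 counts in the larval ones. Its mean level was 0.142 CPM in the former and 3.78 CPM in the latter. With THC it held 4, 1, 0 and 6 counts in embryos and 99, 120, 98 and 65 in larvae, and with CBD 7, 1, 3 and 1 and then 160, 77, 150 and 104. No embryo library held more than 7 counts and no larval one fewer than 56. These values are given with no test, since the gene entered the fit through the larvae. PSME1 was at 13.8, 22.3, 18.5 and 7.42 CPM in DMSO embryos and at 6.85, 6.74, 9.92 and 10.5 CPM in larvae. The stages overlapped only through the shallow DMSO replicate 4 of 10 hpf, where 7.42 CPM is 1 count, under the floor of 3 counts. PSME1 had a log2 fold change of −1.04 (SE 0.42, adjusted p = 0.0292) under TMM and −0.19 with DESeq2 size factors (adjusted p = 0.695). PSME1 counts per PSMB5 count were 0.0688 ± 0.0333 and 0.0664 ± 0.0297 (exact permutation p = 0.914). Without DMSO replicate 4 the embryo mean was 0.0827 ± 0.0224 (exact permutation p = 0.486). The log2 fold change of PSME1 was negative in all 3 treatments under TMM.

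PSME4 encodes a large single-chain activator, and 2 identifiers carry its symbol. ENSDARG00000018742 stood at 74.9, 68.7, 65.9 and 37.1 CPM in DMSO embryos and at 55.0, 59.9, 54.1 and 55.5 CPM in larvae, a difference that did not pass the test (log2 fold change −0.23, adjusted p = 0.309, and 0.59 with DESeq2 size factors, where it passed). ENSDARG00000087911 held 32, 24, 10 and 0 counts in embryos and 273, 235, 337 and 423 in larvae. It rose by 3.51 on the log2 scale (SE 0.34, adjusted p = 5.11e-09). The first gene took 98.8% of the pair's counts in DMSO embryos and 80.6% in larvae, with 97.3% and 82.2% in THC and 98.7% and 80.7% in CBD.

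The alpha ring closes the barrel and gates it. Of its 10 genes, 1 was called higher and 4 lower between stages in DMSO, with a median log2 fold change of −0.49 (42.7% of all genes higher and 34.4% lower). With DESeq2 size factors 1 was called higher and 0 lower. The one higher in both was psma6l, a gene related to the PSMA6 genes, at 4, 4, 1 and 0 counts in embryos and 66, 47, 98 and 121 in larvae, values likewise given with no test. It held a small share of the counts beside the PSMA6 genes: ENSDARG00000013966 held 99.7% of the counts shared with psma6l in embryos and 92.0% in larvae. PSMA8 had a log2 fold change of −0.52 (adjusted p = 0.0587), which turned to 0.28 with DESeq2 size factors.

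The standard beta ring had 5 of 7 genes called lower and 0 higher under TMM, with a median of −0.82 (42.7% of all genes higher and 34.4% lower). PSMB5, which carries the chymotrypsin-like site, was at 224.6, 210.1, 229.0 and 274.4 CPM in DMSO embryos and 162.7, 160.1, 96.5 and 133.5 CPM in larvae (log2 fold change −0.74, SE 0.21, adjusted p = 0.0034). PSMB6, with the caspase-like site, averaged 172 ± 49.9 and 93.3 ± 18.7 CPM (−0.82, SE 0.34, adjusted p = 0.0336). PSMB7, with the trypsin-like site, averaged 376 ± 147 and 157 ± 38.0 CPM (−1.22, SE 0.34, adjusted p = 0.00274). The embryo mean of PSMB7 was 304 CPM without DMSO replicate 4, where it stood at 593 CPM. Under DESeq2 size factors PSMB5, PSMB6 and PSMB7 had log2 fold changes of 0.055, −0.027 and −0.43, and none was called (55% of all genes higher and 21.9% lower).

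In the 19S base, 3 of 7 ATPases and 3 of 5 other genes were called lower in DMSO, and in the lid 3 of 9, with 0 higher in either, all under TMM (42.7% of all genes higher and 34.4% lower). With DESeq2 size factors 0 were called lower, and 3 ATPases (PSMC1, PSMC2 and PSMC4), 1 other base gene (PSMD4) and 2 lid genes (PSMD3 and PSMD14) were called higher (55% and 21.9% of all genes). Those size factors include the shallow DMSO replicate 4 of 10 hpf, and these calls are not given without it. PSMC6, an ATPase, had a log2 fold change of −0.85 (adjusted p = 2.38e-04, and −0.054 with DESeq2 size factors). PSMD11, a lid subunit, is carried by 2 identifiers: ENSDARG00000005134 went from 95, 100.3, 96.4 and 81.6 CPM to 58.5, 54.6, 37.9 and 42.9 CPM (−0.97, SE 0.16, adjusted p = 1.05e-05, and −0.16 with DESeq2 size factors). PSMD14, the enzyme that cuts the ubiquitin chain off the substrate, had a log2 fold change of 0.038 under TMM (adjusted p = 0.905) and of 0.85 with DESeq2 size factors (adjusted p = 0.0098), where it was called higher. Among the assembly chaperones, which hold base subunits until the cap is built, PSMD5 rose from 12.6 ± 4.07 to 24.7 ± 3.82 CPM (0.82, SE 0.21, adjusted p = 0.00149), a call kept under all 3 scalings. PSMD9 had a log2 fold change of −1.09 (SE 0.40, adjusted p = 0.0162, and −0.27 with DESeq2 size factors) and PSMD10 one of −0.28 (adjusted p = 0.479). PSMC3IP, a meiotic recombination factor and no proteasome subunit, fell from 23.6 ± 3.03 to 5.41 ± 1.43 CPM (−2.15, SE 0.32, adjusted p = 2.51e-06). Summed germ line markers (ddx4, nanos3, dazl, piwil1, sycp1, sycp3, dmc1 and tdrd1) stood at 40.3 to 89.9 CPM in DMSO embryos and 6.50 to 10.3 CPM in larvae. Their part in the PSMC3IP result was not tested.

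Ratios within a library compare sub-complexes without any scaling. Counts of the standard 20S genes per count of the 19S base and lid genes were 0.827, 0.812, 0.887 and 1.24 in DMSO embryos and 0.774, 0.780, 0.722 and 0.730 in larvae. No larval library reached an embryo library. The means went from 0.942 ± 0.202 to 0.752 ± 0.0295 in DMSO, from 0.844 ± 0.00588 to 0.773 ± 0.0509 in THC and from 1.02 ± 0.338 to 0.739 ± 0.0298 in CBD (exact permutation p = 0.0286 each). The adjusted value of 0.0468 over 18 ratios is again not read as a result, since the PSME2 ratios are among them. All p-values of ratios in this paragraph are thus unadjusted for the number of ratios and are given as a description. With a single library left out, p lay between 0.0286 and 0.114. Without the shallow and the divergent embryo library the groups still did not overlap (exact permutation p = 0.0286 in DMSO and in CBD). Alpha ring counts per standard beta ring count went the other way, from 0.851 to 0.961 in DMSO and from 0.901 to 1.01 in THC (exact permutation p = 0.0286 each) and from 0.913 to 1.002 in CBD (p = 0.0571). With a single library left out, p in DMSO and THC was at most 0.0857. ATPase counts per lid count were 1.12 ± 0.193 and 1.03 ± 0.0382 in DMSO (exact permutation p = 0.486). Without the shallow DMSO replicate 4 the embryo value was 1.03 ± 0.0312 (exact permutation p = 0.971).

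Many zebrafish genes exist as paralogs, and the share of each in its pair could be followed within libraries. The pattern was a shift in the share of counts between copies of the same subunit from embryo to larva, in the same direction in each treatment for most pairs. PSMC1 and psmc1b encode the same ATPase. PSMC1 took 47.0%, 42.3%, 41.6% and 44.1% of the pair's counts in DMSO embryos and 62.1%, 66.1%, 61.9% and 60.3% in larvae. Counts are not corrected for gene length, so the shares show a change between stages and not which copy had more transcripts. The means were 42.4% and 62.8% in THC and 44.2% and 61.8% in CBD. For the ubiquitin receptor PSMD4, psmd4b took 75.8%, 84.4%, 82.1% and 73.1% in DMSO embryos and 59.7%, 58.0%, 60.6% and 60.9% in larvae, with means of 81.1% and 58.7% in THC and 76.4% and 59.1% in CBD. For PSMC1, psmd4b and PSME4 each of the 3 treatments gave p = 0.0286 (exact two-sided permutation test, adjusted p = 0.0351 over 27 tests of 9 pairs), and leaving out any single library left that p at 0.0286. The 9 pairs include those of psma6l, whose own values are given with no test, so the adjusted value is not read as a result. The p of each share, here and for the other pairs, is thus unadjusted and is given as a description.

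Other pairs shifted less. PSMD11 ENSDARG00000005134 had 57.4% ± 5.16 of its pair in DMSO embryos and 47.9% ± 3.48 in larvae, and 57.0% and 45.9% in THC (exact permutation p = 0.0286 each, at most 0.0571 with 1 library left out). In CBD it had 50.1% and 48.0% (exact permutation p = 0.743), where replicate 3 of 10 hpf was at 34.5% and the other embryo libraries at 54.2% to 56.3% (p = 0.0286 without it). PSMA2 had 54.0% of its pair with psma2a in embryos and 66.1% in larvae with THC, 55.0% and 68.1% with CBD (exact permutation p = 0.0286 each) and 56.8% and 65.0% in DMSO (p = 0.0571). PSMA6 ENSDARG00000013966 had 30.4% and 40.7% of its pair with ENSDARG00000019398 in THC, 31.3% and 42.9% in CBD (exact permutation p = 0.0286 each) and 32.8% and 41.3% in DMSO (p = 0.114, and 0.0286 without DMSO replicate 4). The 2 identifiers named PSMD2 took shares that differed less in DMSO, 57.5% and 62.0% for ENSDARG00000099653 (exact permutation p = 0.0857), and were 56.2% and 62.8% in THC (p = 0.0286). In CBD replicate 3 of 10 hpf this share was 91.1%, against 56.8% to 57.4% in the other CBD embryo libraries. Counts of near-identical copies can be divided unevenly by read assignment, so the absolute shares are less certain than their differences between stages.

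**Figure D3:**
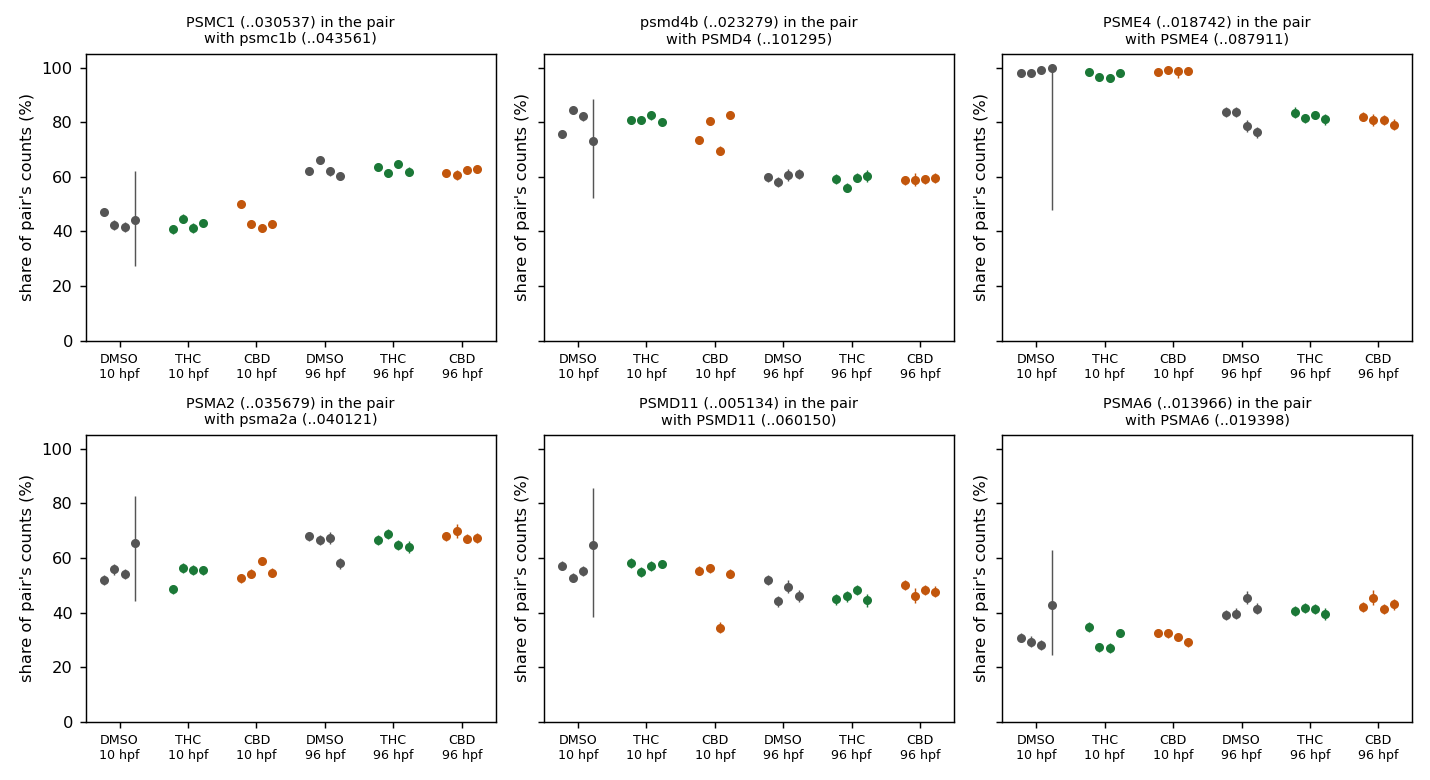
Share of a pair's counts taken by the first-named paralog, in percent, 1 point per library with its exact 95% binomial interval, at 10 and 96 hpf in DMSO, THC and CBD. The digits after the dots end the gene identifiers, and the long bars belong to the shallow DMSO replicate 4. The PSMC1 share lies at 40.7% to 49.9% in embryos and at 60.3% to 66.1% in larvae, and the psmd4b share at 69.5% to 84.4% and 56.0% to 60.9%.

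The immune beta genes were rare at both stages. Of 7 identifiers, 3 (PSMB9, PSMB10 and psmb12) passed the filter over both stages and 2 at 10 hpf. PSMB10, the immune counterpart of PSMB7, was at 11.2, 12.96, 13.2 and 14.8 CPM in DMSO embryos and 6.73, 5.66, 6.95 and 7.34 CPM in larvae (log2 fold change −0.91, SE 0.38, adjusted p = 0.0348, and −0.083 with DESeq2 size factors). Set against PSMB7, it did not move apart: PSMB10 made up 3.56% ± 0.77 of the counts of both in DMSO embryos and 4.32% ± 1.40 in larvae. PSMB9, the counterpart of PSMB6, averaged 0.305 ± 0.352 and 0.671 ± 0.339 CPM, with wide overlap. Its share of PSMB9 and PSMB6 counts, pooled over the group, was 0.260% (exact 95% binomial interval 0.161% to 0.397%, counting error only) in DMSO embryos and 0.707% (0.542% to 0.905%) in larvae. PSMB8, the counterpart of PSMB5, took 0.142% (0.0825% to 0.227%) and 0.178% (0.113% to 0.268%). psmb12, a beta gene of fishes, had a log2 fold change of −0.88 (adjusted p = 0.111), and psmb13a had 1 count over the DMSO embryos and 15 over the DMSO larvae.

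With the cannabinoids the larval shares lay in the same range. PSMB9 took 0.450% (0.314% to 0.625%) with THC and 0.574% (0.419% to 0.767%) with CBD at 96 hpf. The PSMB10 share of larvae was 4.51% ± 1.43 with THC and 4.72% ± 2.28 with CBD, and single libraries ran from 2.59% to 7.32%. That spread within groups exceeded any difference between group means. Summed T cell and thymus markers were higher in larvae, at 0 to 2.65 CPM in DMSO embryos and 9.05 to 13.3 CPM in larvae. Summed leukocyte markers overlapped between stages, at 66.0 to 109 and 56.3 to 115 CPM, with 3 of 12 leukocyte markers at 0 in the DMSO embryos and 1 of 12 at 0 in the larvae. LCP1 alone averaged 79.2 CPM of the embryo sum, while lyz, a neutrophil gene, was at 0.274 CPM in embryos and 23.7 CPM in larvae. The remaining leukocyte markers are not given singly, so lyz does not stand for the list. The part of immune cells in these shares was not tested.

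**Figure D4:**
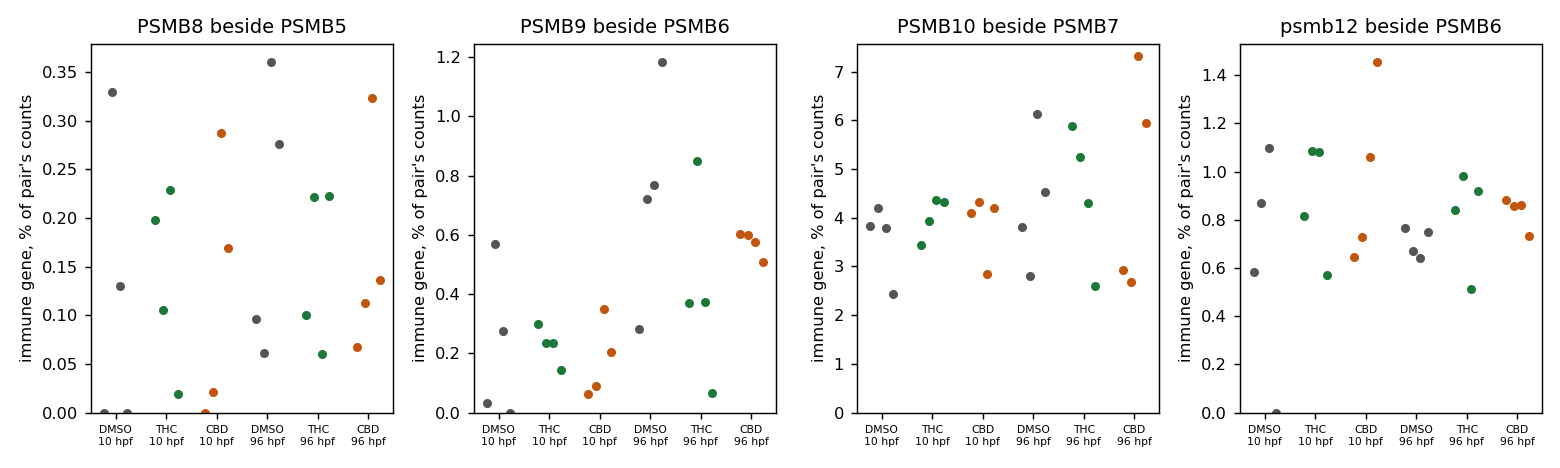
Counts of an immune-type beta gene as a percent of its own counts and those of the standard gene named beside it, 1 point per library, by stage and treatment. Each panel has its own axis from 0. PSMB10 lies between 2.44% and 7.32%, PSMB9 reaches 1.19% and PSMB8 0.361%, with wide overlap between treatments.

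Other genes of the pathway were compared between stages as well, against a background of 42.7% of all genes higher and 34.4% lower under TMM and 55% and 21.9% with DESeq2 size factors. The latter include the shallow DMSO replicate 4 of 10 hpf. Of 19 tested genes for assembly and partners, 1 was called higher and 12 lower in DMSO under TMM, against 5 and 4 with DESeq2 size factors. Among them AKIRIN2, which helps bring proteasomes into the nucleus, had a log2 fold change of −1.79 (edgeR adjusted p = 9.26e-09), NGLY1, which activates the proteasome transcription factor NFE2L1, −1.63 (9.31e-09), TXNL1, a thioredoxin bound to the 19S cap, −1.59 (8.41e-08), and zfand5a −1.06 (1.41e-06). Of 17 ubiquitin and shuttle genes, 3 were called higher and 10 lower, against 7 and 4 with DESeq2 size factors. The smallest p values belonged to UBQLN4 (−1.66, adjusted p = 3.34e-09) and RAD23B (−1.17, 7.44e-07), which carry substrates to the proteasome, UBXN1 (−1.68, 1.19e-06), and UFD1 (1.26, 4.64e-06), an adaptor of the unfoldase VCP. Of 25 tested genes of antigen presentation, 13 were called higher and 6 lower, and 14 and 3 with DESeq2 size factors. The 4 genes named by smallest p all rose, and their log2 fold changes are given as a description. They were b2ml (2.69) and mhc1zda (5.79), genes of class I MHC chains, and the peptide-trimming enzymes erap2 (3.46) and ERAP1 (2.95). The 6 called lower are not named, so these genes do not stand for the list. Its summed level overlapped between stages, at 460 to 755 CPM in DMSO embryos and 690 to 858 CPM in DMSO larvae.

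The effect of the cannabinoids on embryos was examined next. No member passed the test at 10 hpf in any of the 3 comparisons (edgeR quasi-likelihood test, 0 of 48), and none of the 17595 genes did (0%). The pathway lists also held 0 calls. THC and DMSO embryos were close: 35 of 48 members had a negative log2 fold change (47.3% of all genes), with a median of −0.041, and 0 had an unadjusted p under 0.05 (0.278% of all genes). The 4 members with the smallest p were the PSME4 gene ENSDARG00000087911 at 0.46 (unadjusted p = 0.352), PSMB7 at −0.32, PSMA5 at −0.20 and PSMC3 at −0.20. DESeq2 and limma voom also called 0.

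CBD embryos had higher values on average, and most of the difference was gone without 1 library. Between CBD and DMSO the log2 fold change was positive for 44 of 48 members (55% of all genes), with a median of 0.69 against 0.056, and 15 had an unadjusted p under 0.05 (5.41%). Without CBD replicate 3 it was 42 of 48, a median of 0.17 and 0 members (2.62%). PSMA4, an alpha ring gene, was at 163.6, 224.3, 891.9 and 189.6 CPM in the CBD libraries and at 166.4, 147.7, 183.2 and 140.9 CPM in the DMSO libraries (log2 fold change 1.20, SE 0.47, unadjusted p = 0.0231, adjusted p = 0.805). Without replicate 3 the log2 fold change of PSMA4 was 0.22. PSMD14 at 0.86, PSMD13 at 1.03 and PSMD9 at 1.30 followed, each with an adjusted p of 0.805, and these were 0.31, 0.24 and 0.24 without replicate 3. Groups did not overlap for PSMD13, PSMC4 and PSMD14, all higher with CBD (1.43% of all genes), a feature chosen after the values were seen. PSMC4, an ATPase, stood at 182.3, 185.6, 304 and 190.0 CPM with CBD and at 171.6, 156.1, 169.4 and 103.8 CPM with DMSO.

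CBD and THC share a carbon skeleton and differ in that THC holds a closed ring where that of CBD is open. Between them at 10 hpf, 44 of 48 members were positive (53.4% of all genes) with a median of 0.73, and 28 had an unadjusted p under 0.05, 27 of them higher with CBD (9.1% of all genes in either direction and 5.75% higher). Without CBD replicate 3 it was 45 of 48, a median of 0.23 and 3 members (5.84%). The smallest p values were those of PSMD9 at 1.46 (unadjusted p = 0.0114), PSMB1 at 1.08, PSMA1 at 1.05 and PSMC1 at 0.68, each with an adjusted p of 0.542. Without CBD replicate 3 these fold changes were 0.42, 0.41, 0.45 and 0.39. DESeq2 called 0, and limma voom with quality weights called 5, all higher with CBD (0.614% of all genes). PSMC4 and the PSMD11 gene ENSDARG00000060150 did not overlap (1.33% of all genes, higher). PSMC4 was at 147.5, 158.2, 155.6 and 171.0 CPM with THC, and the PSMD11 gene at 79.6 to 159.4 CPM with CBD and 67.5 to 78.8 CPM with THC.

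In CBD replicate 3 the proteasome genes stood unevenly high. Set against the mean of the other CBD embryo libraries, 40 of 48 members stood above 1.5 times (26.4% of 15658 genes) and 5 below 1 under TMM, and 24 above 1.5 times (11.9% of genes) and 11 below 1 by library total. The median ratio was 2.54 for members and 0.786 for all genes, and 1.53 and 0.467 with library totals. By role the median ratio under TMM was 3.45 for the standard beta ring, 3.22 for the alpha ring, 2.13 for the ATPases, 1.95 for the lid and 1.19 for the other base genes, and by library total 2.09, 1.94, 1.28, 1.15 and 0.709. Under TMM PSMB3 at 5.19 and PSMD9 at 5.06 were highest. The 2 PSMD2 genes were at 0.0462 and 0.353, the 2 PSME4 genes at 0.507 and 0.565 and PSMD11 ENSDARG00000005134 at 0.793. The 20S to 19S count ratio of this library was 1.52, against 0.798 to 0.919 in the other CBD embryos.

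Embryo libraries also differed in the marker nanog, a factor of the early embryo, across groups. It was at 10.2 to 11.99 CPM in DMSO replicate 1, THC replicate 4 and CBD replicates 1 and 2, and at 76.7 to 219 CPM in the 6 other deep libraries without CBD replicate 3. The summed level of the non-immune set ran from 5944 to 7670 CPM in the former and from 5375 to 6683 CPM in the latter. Of 48 members, 5 were higher in the former without overlap (14.4% of all genes) and 0 lower (13.1%). These were PSMA1, PSMC1, PSMD1, PSMD3 and PSMD4, of which PSMD3 averaged 170 and 89.6 CPM. The libraries were divided at 50 CPM of nanog. With such shares among all genes, the 5 genes are a description and not read as a result about the members. The part of nanog-linked differences in the 10 hpf comparisons, those of PSMA1 and PSMC1 included, was not tested.

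In larvae no member passed the test in any comparison (edgeR, 0 of 51), while among the 21409 genes tested 0.0514% passed between THC and DMSO (11 genes) and 0% between CBD and DMSO and between CBD and THC. DESeq2 and voom called 0 members too. Between THC and DMSO 30 of 51 members were positive (52.8% of all genes), with a median of 0.018 and 0 at an unadjusted p under 0.05 (3.75%). The smallest p values were those of the PSME4 gene ENSDARG00000018742 at 0.18 (unadjusted p = 0.0547), PSMD1, PSMB9 and PSMD10. Between CBD and DMSO 46 of 51 were negative (46.8% of all genes) and all 17 standard 20S genes were. The shift was small, with a median of −0.13 against 0.013 for all genes, and 0 members had an unadjusted p under 0.05 (1.92%). With library totals 35 of 51 were negative with a median of −0.065, where the median of all genes was 0.069. Relative to all genes the members' median was −0.14 under TMM and −0.13 with library totals, nearly the same by construction. PSME2 at 0.38 (unadjusted p = 0.0942), PSMB6 at −0.26 (0.125), psma2a at −0.23 and PSMD2 ENSDARG00000099653 at −0.18 had the smallest p.

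Between CBD and THC larvae 44 of 51 members were negative (50.8% of all genes), and 1 had an unadjusted p under 0.05 (2.52%). This was PSME4 ENSDARG00000018742, at 56.1, 56.8, 50.4 and 54.2 CPM with CBD and 62.7, 60.5, 67.2 and 59.1 CPM with THC. The groups did not overlap (1.17% of all genes, lower), with a log2 fold change of −0.20 (SE 0.08, unadjusted p = 0.0342, adjusted p = 1). The 95% intervals limit what could be missed for a single gene, and are unadjusted for the number of genes. For the 46 standard genes they ran from −0.72 to 0.83 between CBD and DMSO, from −0.74 to 0.80 between CBD and THC and from −0.79 to 0.60 between THC and DMSO on the log2 scale, so each interval excluded a change of 1 log2 unit. The median SE was 0.158.

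The larval spread of the proteasome genes was shared between them. Over the 12 larval libraries the median Pearson r between pairs of 44 subunits was 0.86 (946 pairs), given as a description, and the summed level was lower where the TMM factor was higher (r = −0.92, and −0.76 with library totals). The subunits share libraries, depth and scaling factor, so these values do not separate a common change of the genes from the scaling of the libraries. In DMSO larvae, for example, replicate 3 had the lowest sum, at 2994 CPM.

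**Figure D5:**
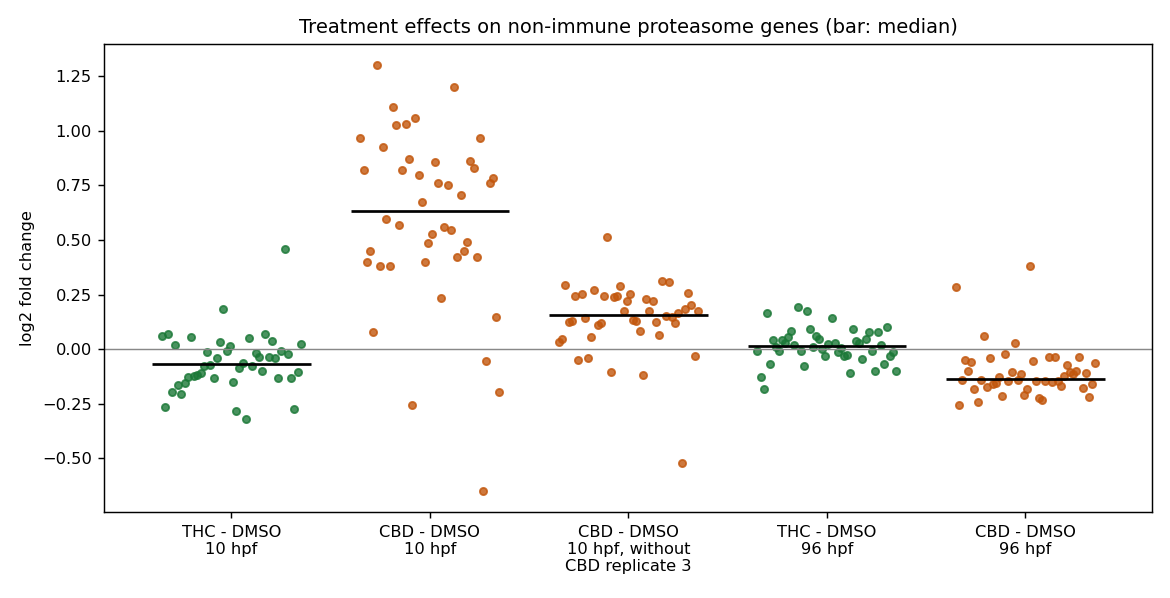
Log2 fold change of each tested non-immune proteasome gene against DMSO, 1 point per gene with a bar for the median, for THC and CBD at both stages and for CBD at 10 hpf without replicate 3. The medians are −0.068 and 0.63 at 10 hpf, 0.16 for CBD without replicate 3, and 0.014 and −0.14 at 96 hpf, and no gene passed the test.

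Whether a treatment acted differently at the stages was tested as an interaction over the 24 libraries. No member was called for THC or CBD (edgeR, 0 of 51, and 0% of all genes). For THC 0 had an unadjusted p under 0.05 (2.37% of all genes), and for CBD 28 had (6.7%), which became 3 without CBD replicate 3 (3.89%). Limma voom called 2 members for CBD, both lower (1.06% of all genes).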

How the data were processed

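Deposited values were raw counts per gene, 1 table per library with 35117 Ensembl identifiers, 0 rows without a gene, and no normalization by the authors. Per the labels' protocols, RNA was treated with DNase and sequenced as paired TruSeq reads. The submitters' processing notes name STAR, HTSeq and edgeR with GRCz11, and state no versions. The deposited file names carry the words reverse and union, which are HTSeq options, and reads of near-identical paralogs may have been dropped or split. Symbols came from a name table covering 27000 identifiers, many in the human style. Positions and sequences were not used here.

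Low genes were removed by filterByExpr with a minimum count of 10 and at least 15 counts in all. The minimum count acts as a CPM cutoff to be met in as many libraries as the smallest group holds, not in every library. The rest were scaled by TMM and tested with the edgeR 4.0.16 quasi-likelihood test in R 4.3.3 with Benjamini-Hochberg adjustment over all genes tested (threshold 0.05). Treatments were compared within each stage over 12 libraries, stages and interactions over 24. Each SE is the fold change divided by the root of its F value. For some genes near no change at 10 hpf the p-value was larger than that F value gives, so such an SE may be too small. Within-library shares and ratios were compared with exact two-sided permutation tests, whose smallest p with 4 against 4 is 0.0286. Members and lists were chosen with earlier results of these data known. Named genes were the 4 with the smallest p where none was called, the called genes with the largest rises and falls between stages, paralogs, immune genes and PSMB5, PSMB6, PSMB7 and PSMA8; PSMC2, PSMC4, PSMC6, PSMD1, PSMD3, PSMD14, PSMD13, PSMD10 and PSMB3 were added after their values were seen.

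Alternatives were DESeq2 1.42.0 (size factors, Wald test), library totals, limma 3.58.1 voom with quality weights, other filters, a replicate block and libraries left out. The shares, ratios and list scalings under single libraries or other scalings were added after the data were seen. Fits were tested on simulated counts. No 2 replicates agreed within sampling noise (36 pairs, lowest chi-square per degree of freedom 2.53). A count of 3, taken as the floor, is 23.8 CPM in DMSO replicate 4 of 10 hpf, so zeros there carry little information; intervals and floors cover counting error only.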

Additional observations from a re-analysis of the deposited data

Results flagged for a closer look

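In 96 groups of 4 values, 9 held a library far from the other replicates by Dixon's criterion. Chance gives about 1 in 20 for a single group. The groups share libraries and genes, as sums and single genes of those sums were both looked at, so the count is not compared with that rate. Of the 9, 8 were CBD replicate 3 of 10 hpf. Its summed level of the 46 non-immune genes was 17233 CPM under TMM (the other CBD embryo libraries 5988 to 7670) and 9690 CPM by library total (5842 to 6924), and under TMM that of the alpha ring was 4661 CPM (1240 to 1708), that of the standard beta ring 5303 CPM (1287 to 1814) and that of the lid 2977 CPM (1193 to 1441). PSMB6 stood at 662 CPM (150 to 201), PSMB7 at 1159 CPM (258 to 393) and PSME1 at 78.9 CPM (13.3 to 22.2), and its 20S to 19S count ratio was 1.52 (0.798 to 0.919). In the shallow DMSO replicate 4 of 10 hpf, the lid genes summed to 905 CPM against 1137 to 1172 CPM in the other DMSO embryo libraries.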

How the results depend on the processing

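Treatment comparisons and interactions called 0 members under each alternative, including each left-out library (0 to 0), except limma voom. It called 5 higher between CBD and THC at 10 hpf (0.614% of all genes) and 2 lower in the CBD interaction (1.06% of all genes). Over all alternatives 192 counts stayed within 1.5 times and 13 did not. The stage counts moved with scaling. In the main fit 77.1%, 79.9% and 78% of all genes were called between stages in DMSO, THC and CBD. The member counts that follow therefore describe the processing and are not read as a result about the members. In DMSO, 27 members became 13 with DESeq2 size factors, 14 with the DESeq2 Wald test, 42 with voom and 11 with size factors without DMSO replicate 4 of 10 hpf, and 11 to 24 when single libraries were left out, with 13 without DMSO replicate 2 and 11 without replicate 3 of 10 hpf, while leaving out both doubted libraries gave 38. In THC, 28 became 16, 16 and 14 under size factors, the Wald test and size factors without that library (20 to 28 with single libraries left out). In CBD, 45 became 28 and 25 under the first 2 (41 to 45).

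The sign of 96 against 10 hpf in DMSO differed between scalings for 24 of 51 members. Among the members chosen to be named, those that turned, with size factors and the Wald test, were PSMA6 ENSDARG00000013966 (0.60 and 0.56, also 0.0494 with voom, 0.0308 without both doubted libraries and 0.21 with size factors without DMSO replicate 4), PSME4 ENSDARG00000018742 (0.59 and 0.56), PSMA2 (0.48 and 0.47, and 0.0323 with size factors without DMSO replicate 4), PSMD11 ENSDARG00000060150 (0.32 and 0.29), PSMA8 (0.28 and 0.29), psmc1b (0.11 and 0.13), PSMD2 ENSDARG00000099653 (0.11 and 0.11) and PSMB5 (0.0550 and 0.0678). All of these but PSMA6 ENSDARG00000013966 and PSMA2 kept their TMM sign with size factors when DMSO replicate 4 of 10 hpf was left out. The cause was not tested.

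With single libraries left out, 310 shares and ratios kept direction and side of the threshold, 39 no longer passed, 3 newly passed and 8 turned sign. These 8 belonged to 4 results, whose differences between stages ranged from −8.12 to 3.31 percentage points for the PSMD2 share in CBD (above 0 without embryo replicate 3), from −0.0163 to 0.0100 for PSME1 per PSMB5 in DMSO, from −0.0228 to 0.0121 for the same in CBD, and from −0.0177 to 0.0231 for ATPases per lid in CBD.

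The labels do not say whether replicate numbers pair libraries, and correlations could not settle it. Same-numbered libraries correlated above 0.1 in 4 of 12 pairs at 10 hpf (−0.50 to 0.66) and 7 of 12 at 96 hpf (−0.22 to 0.36). At 96 hpf the pairs of replicate 1 lay at 0.21 to 0.36 and those of replicate 2 at −0.22 to −0.032. With the replicate number as a block, 0 members were called between treatments, and 30, 31 and 44 between stages in DMSO, THC and CBD. Without a block 77.1%, 79.9% and 78% of all genes were called between stages, so these counts too are not read as a result about the members. Depth limits the immune genes and all values of DMSO replicate 4 of 10 hpf.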
